A study of Mus musculus with 15 samples.

Results

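The clustered protocadherins are 3 neighbouring arrays of cell-adhesion genes, alpha, beta and gamma, that lie together on mouse chromosome 18. Members were taken by symbol: every gene whose name starts with Pcdha, Pcdhb or Pcdhg, which gave 59 of the 23420 rows of the count table. Of these, 15 belong to the alpha, 22 to the beta and 22 to the gamma cluster. In the mm10 mouse genome (RefSeq gene positions) the alpha cluster occupies chr18:36930285-37188897, the beta cluster chr18:37264998-37521419 and the gamma cluster chr18:37661775-37841873, 0.912 Mb from end to end.

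Clustered protocadherins are transmembrane cadherin-like proteins whose combination differs from neuron to neuron, which lets branches of the same neuron recognise and avoid each other. Each alpha and gamma transcript joins 1 variable exon, read from its own promoter, to constant exons shared by the whole cluster, so members differ outside the cell and share an intracellular end. Beta genes have 1 exon each and lack that shared end. In neurons the promoters are chosen largely at random with the help of CTCF and cohesin, except for the C-type members at the end of the alpha and gamma clusters, which are used more uniformly.

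The 15 RNA-seq libraries came from neural progenitors that were derived from 129/Ola mouse embryonic stem cells. All cells spent 2 days in suspension, received 500 nM all-trans retinoic acid, and were exposed to 1 ug/ml doxycycline for 12 hours. Doxycycline switched on a transgene behind a TRE (tetracycline response element) promoter. The lines were TRE_Olig2, TRE_Nkx6.1-P2A-Olig2, TRE_Nkx2.2, TRE_Nkx6.1 and TRE_Nkx6.1-P2A-Nkx2.2, with 2 libraries each, and the control was the parental mA2.lox.Cre line, which carries TRE_Cre, with 5 libraries. P2A is a peptide that lets 1 transcript give 2 proteins. Every group, the control included, thus had retinoic acid, doxycycline and an inducible transgene. The labels give neither the number of clones behind a line nor whether replicates were separate cultures. A p-value therefore sets the difference between groups only against the spread between libraries within groups. Part of that spread may be technical. The study's stated interest is in genes that the 3 factors repress.

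Library totals were 12282038 to 19426544 counts, of which the 59 members held 2239 to 4883 counts, or 0.0151% to 0.0287%. The transgenes matched the labels: Olig2 stood at 422 to 637 CPM (counts per 1e6 reads, TMM-scaled) in the 4 libraries made to express it and at 1.99 to 45.1 CPM in the other 11. All 7 progenitor markers were detected in every library. Markers of other cell types were detected too. The 9 neuron markers summed to 52.0 to 140 CPM per library, the 5 pluripotency markers to 83.1 to 340 CPM and the 6 fibroblast markers to 29.0 to 114 CPM. The 6 mesoderm and endoderm markers summed to 179 to 417 CPM and the 5 oligodendrocyte lineage markers to 122 to 292 CPM. No marker of these lists was at 0 in any library.

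In the control progenitors the gamma cluster supplied nearly all clustered protocadherin RNA. Its members summed to 154 ± 12.5 CPM, against 14.2 ± 2.15 CPM for the beta and 1.49 ± 0.102 CPM for the alpha cluster (mean ± SD, n = 5). As shares of member reads these were 90.8% ± 0.806, 8.32% ± 0.831 and 0.885% ± 0.13. Counting each read per kilobase of variable exon, since genes differ in length, left the gamma share at 93.3% ± 0.526, the beta share at 5.73% ± 0.536 and the alpha share at 1.01% ± 0.163. The rule by which reads of the shared constant exons were assigned is not given, so levels within the alpha and gamma clusters carry that uncertainty.

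**Figure D1:**
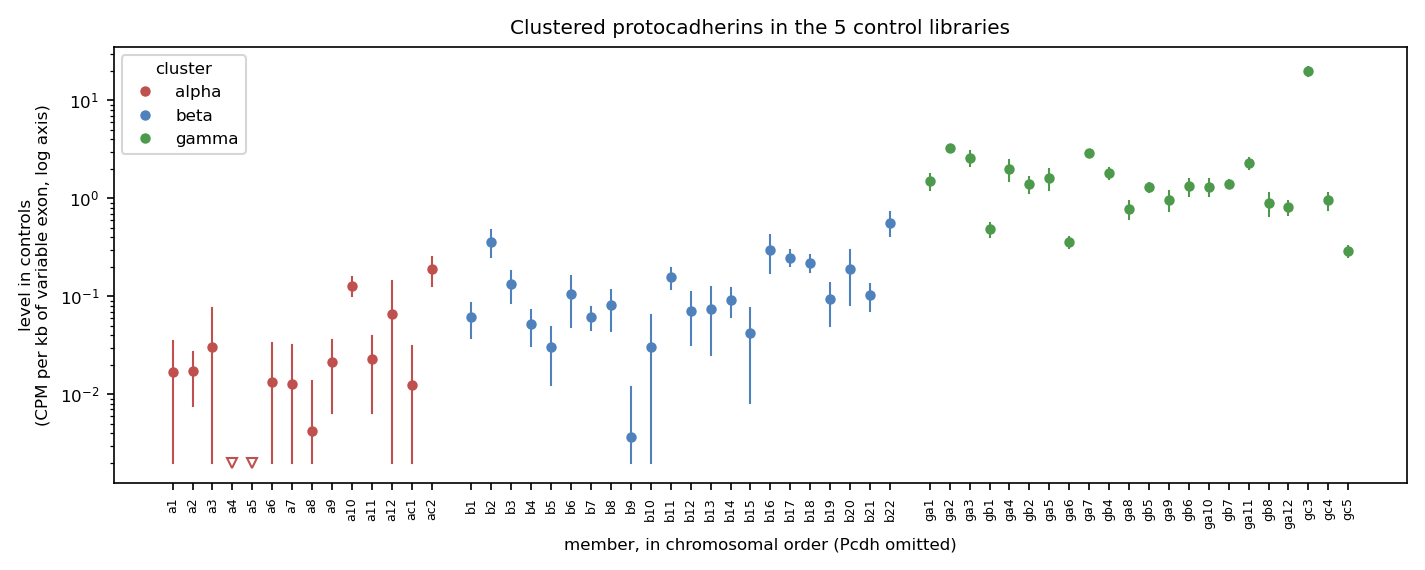
Level of each member in the 5 control libraries, in CPM per kb of variable exon on a log axis, in chromosomal order; points are means, bars are 1 SD (cut at the foot of the axis) and open triangles mark members with a mean of 0. Gamma members lie highest, with Pcdhgc3 at 19.8, and most alpha members lie lowest.

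A single gene, the C-type member Pcdhgc3, made up 39.3% ± 2.5 of all member reads in the controls. Per kilobase of variable exon it stood at 19.8 ± 2.23 CPM. The next gamma members were Pcdhga2 at 3.28 ± 0.266, Pcdhga7 at 2.88 ± 0.262 and Pcdhga3 at 2.58 ± 0.436 CPM per kb. Neighbours among these 3 differed by less than the sum of their SDs, whereas the step down from Pcdhgc3 was several times larger than any SD. The other C-type gamma members were much lower: Pcdhgc4, which mice need for the survival of neurons, stood at 0.954 ± 0.193 and Pcdhgc5 at 0.290 ± 0.0362 CPM per kb, the lowest of the cluster. A reference transcript of Pcdhgb1 overlaps the variable exon of Pcdhga4, and an antisense gene overlaps Pcdhgc3; the strand setting of the counting is not given, so reads of these genes may be shared.

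Beta members were an order of magnitude lower. Their median was 0.0931 CPM per kb, against 1.36 for gamma and 0.0171 for alpha members, and 19 of the 22 gamma members stood above the highest beta member. That member was Pcdhb22 at 0.567 ± 0.152 CPM per kb, followed by Pcdhb2 at 0.360 ± 0.110, Pcdhb16 at 0.298 ± 0.123, Pcdhb17 at 0.249 ± 0.0455 and Pcdhb18 at 0.219 ± 0.0438. Neighbouring values in this order, Pcdhb22 and Pcdhb2 included, differed by less than the sum of their SDs. Pcdhb21 and Pcdhb22 overlap in the annotation. Of the 50-base windows of a beta gene, a median of 3.66% and at most 12.0% also occurred in another member, and reads from such windows may be split between genes.

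The alpha cluster was close to silent. Its highest member, the C-type gene Pcdhac2, needed in mice for the spacing of serotonergic axons, stood at 0.190 ± 0.0633 CPM per kb, and the other C-type alpha member, Pcdhac1, had 9 counts in all 15 libraries together. Pcdha4 and the read-through row Pcdha4-g, which share exons and are named here after their values were seen, had 0 counts in every library.

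Only the better expressed members could be tested. A gene was tested where at least 2 libraries reached 1 CPM, and 33 of the 59 members did: 1 alpha, 10 beta and 22 gamma. Pcdhac2 and Pcdhb3 passed only with the help of the Olig2 libraries, so a higher level there was built into their being tested. The filter used CPM of the library total, before TMM scaling. On that scale, at the edge, the second-highest library had 1.59 CPM for Pcdhac2 (tested) and 0.497 CPM for Pcdha12 (not tested), and 1.09 CPM for Pcdhb3 (tested) and 0.739 CPM for Pcdhb21 (not tested). The lowest gamma members by this measure, Pcdhgb1 and Pcdhga6 (named after its values were seen), had 1.94 CPM, both from 33 counts in Olig2 replicate 2. Pcdhgb1 reached 1 CPM in 13 libraries and Pcdhga6 in 5. The 26 members that were not tested enter the cluster sums, which use every row.

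All 3 clusters were higher in the Olig2 line than in the control. The gamma sum was 216 and 252 CPM in the Olig2 libraries, against 152, 149, 167, 166 and 137 CPM in the control libraries, a ratio of means of 1.51. The beta sum was 20.5 and 36.9 CPM in the Olig2 libraries, against 12.6, 13, 17.9, 14.2 and 13.3 CPM in the controls, a ratio of 2.02. The alpha sum was 2.51 and 4.93 CPM, from 36 and 82 counts, in the Olig2 libraries, against 1.35 to 1.61 CPM in the controls, a ratio of 2.49. In each cluster both Olig2 libraries lay above all 5 controls. For alpha and gamma they also lay above every library of the other 4 lines, but for beta replicate 1 lay below 1 Nkx6.1-P2A-Olig2 library (22.3 CPM). The Olig2 libraries were far apart for alpha and beta: the ratio to the control mean was 1.68 in replicate 1 and 3.30 in replicate 2 for alpha, 1.45 and 2.60 for beta, and 1.40 and 1.63 for gamma. Without its highest gene, the ratio was 1.88 for beta (without Pcdhb22) and 1.56 for gamma (without Pcdhgc3). The alpha sum without Pcdhac2 was 0.99 times the control mean in replicate 1, from 13 counts and inside the control range, and 2.69 times in replicate 2, from 41 counts.

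**Figure D2:**
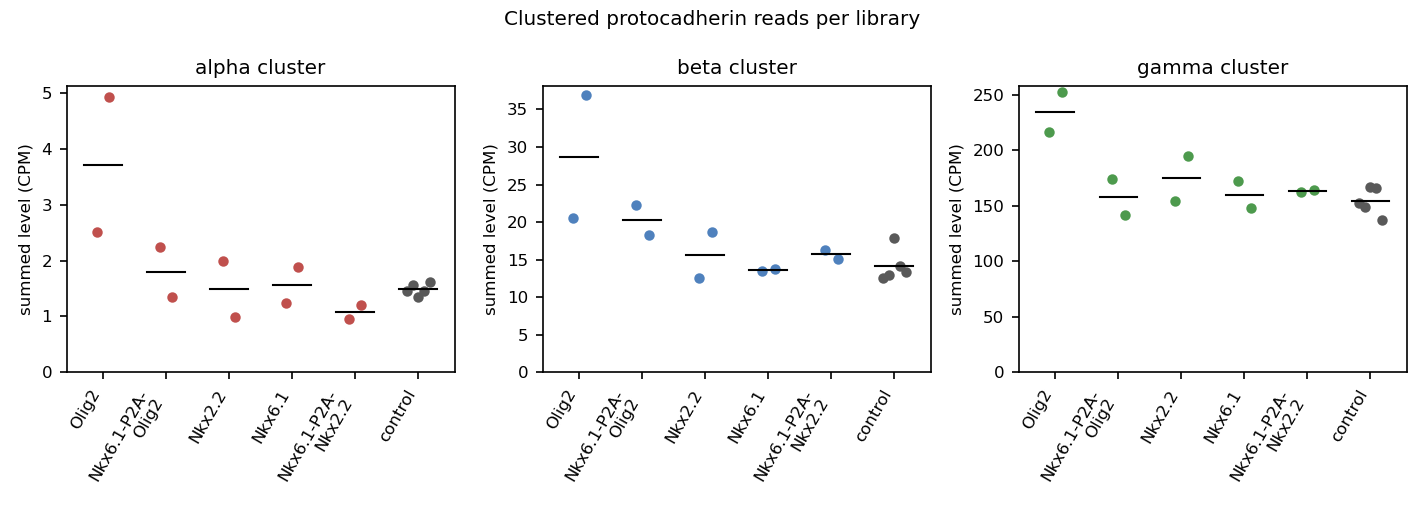
Summed level of each cluster (CPM, all rows of the cluster) in every library, with the control at the right of each panel; points are libraries and lines are group means. Both Olig2 libraries stand above the 5 controls in each panel, as do the beta sums of the Nkx6.1-P2A-Olig2 line, 22.3 and 18.3 CPM.

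In the Olig2 line 6 single members passed the test (edgeR quasi-likelihood, Benjamini-Hochberg adjusted p under 0.05 over 13982 genes), all of them higher: 1 alpha, 2 beta and 3 gamma. The alpha member is Pcdhac2, which was tested only through the Olig2 libraries. Leaving out Pcdhac2 and Pcdhb3, 5 of 31 members were higher, beside 1.42% of all genes tested that were higher in this comparison. The log2 fold change was positive for 31 of these 31, with a median of 1.19 for the 9 beta and 0.61 for the 22 gamma members, against -0.01 over all genes tested. Both Olig2 libraries lay above all 5 controls for 5 of 10 beta and 18 of 22 gamma members, which held for 7.88% of all genes tested; Pcdhb3 is not among them.

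**Figure D3:**
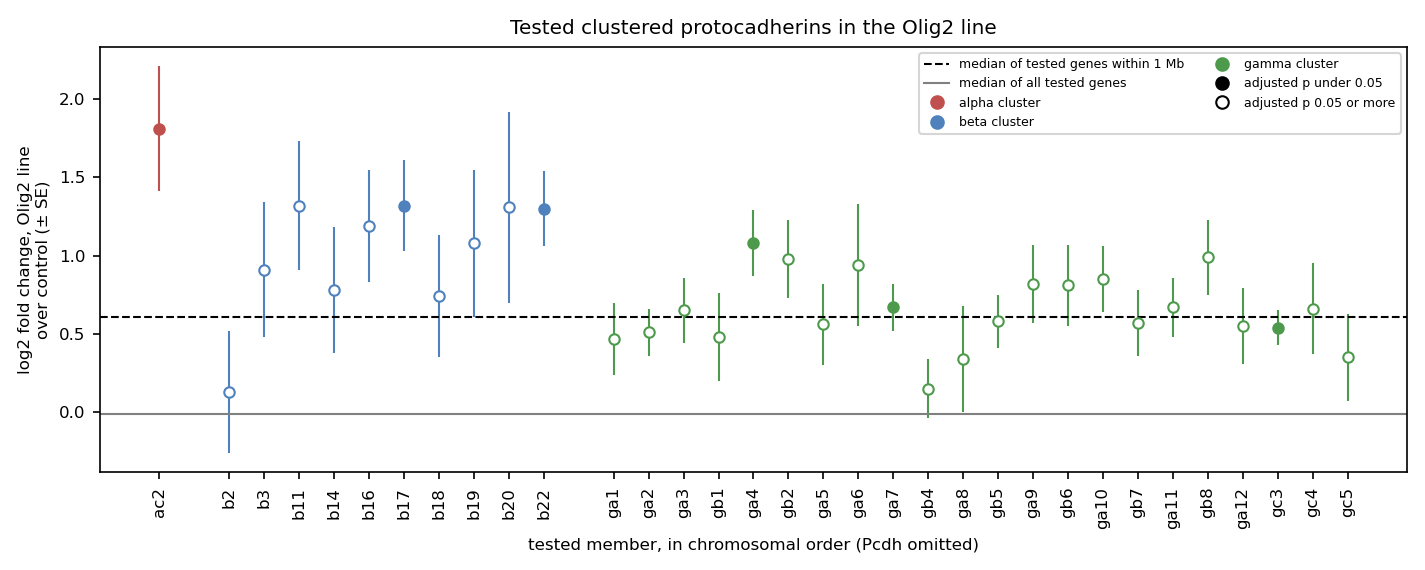
Log2 fold change ± SE of the 33 tested members, Olig2 line over control, in chromosomal order; filled points have an adjusted p under 0.05, the dashed line is the median of the tested genes within 1 Mb (0.61) and the grey line that of all tested genes (-0.01). The beta members lie mostly above the dashed line and the gamma members lie around it.

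Pcdhac2 was the only tested alpha member, and since it passed the filter only through the Olig2 libraries, its values are a description. It stood at 1.60 and 2.46 CPM in the Olig2 libraries, against 0.522, 0.784, 0.676, 0.619 and 0.278 CPM in the controls. The groups did not overlap, and the log2 fold change was 1.81 ± 0.40 (adjusted p = 0.034, for a gene that had to be high in the Olig2 line to be tested), from 64 counts in the Olig2 libraries and 54 in the controls. The untested alpha members gave no uniform picture: of 12 with any count, 8 had a higher mean in the Olig2 line and 4 a lower one, and Pcdha12, the one nearest to the filter, stood at 0.0697 and 0.841 CPM in the Olig2 libraries, against 0.052 to 0.5 CPM in the controls.

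Among beta genes, Pcdhb22 and Pcdhb17 rose. Pcdhb22 stood at 6.34 and 10.8 CPM in the Olig2 libraries, against 2.45, 3.29, 4.99, 3.6 and 3.11 CPM in the controls, a log2 fold change of 1.30 ± 0.24 (adjusted p = 0.0122). Pcdhb17 stood at 1.88 and 3.90 CPM in the Olig2 libraries, against 1.36, 0.993, 0.883, 1.24 and 1.33 CPM in the controls, a log2 fold change of 1.32 ± 0.29 (adjusted p = 0.0332). Neither overlapped with the controls, and in both the second Olig2 library was the higher. Pcdhb16 did not overlap with the controls either, at 2.72 and 4.39 CPM in the Olig2 libraries and 0.941 to 2.49 CPM in the controls, but missed the threshold (log2 fold change 1.19 ± 0.36, adjusted p = 0.142). Pcdhb18 shows the spread between the Olig2 libraries: 0.767 CPM in replicate 1, below every control, and 2.88 CPM in replicate 2, above every control, with controls at 0.782 to 1.35 CPM (log2 fold change 0.74 ± 0.39, adjusted p = 0.463). Pcdhb2 moved least, with 1.39 and 0.841 CPM in the Olig2 libraries, against 0.732 to 1.51 CPM in the controls (log2 fold change 0.13 ± 0.39, adjusted p = 0.933). Of the 12 untested beta genes, 8 had a higher and 4 a lower mean in the Olig2 line.

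The gamma cluster moved more evenly. Its A-type, B-type and C-type members summed to 1.57, 1.54 and 1.46 times the control mean. Pcdhgc3, the most abundant member, rose: it stood at 92.4 and 103 CPM in the Olig2 libraries, against 64.9, 69.3, 70.6, 74.9 and 55.0 CPM in the controls, a log2 fold change of 0.54 ± 0.11 (adjusted p = 0.0234). Pcdhga4 rose most, with 6.90 and 6.31 CPM in the Olig2 libraries, against 4.07, 2.67, 3.79, 2.48 and 2.61 CPM in the controls, a log2 fold change of 1.08 ± 0.21 (adjusted p = 0.0179). Pcdhga7 rose as well, with 12.8 and 15.6 CPM in the Olig2 libraries, against 7.98, 8.52, 10.1, 9.23 and 8.78 CPM in the controls, a log2 fold change of 0.67 ± 0.15 (adjusted p = 0.0429). None of these 3 overlapped with the controls.

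Other abundant gamma members moved in the same direction without passing the threshold. Pcdhga2 stood at 11.9 and 12.1 CPM in the Olig2 libraries and at 7.69 to 9.23 CPM in the controls (log2 fold change 0.51 ± 0.15, adjusted p = 0.134). Pcdhga3 stood at 9.41 and 11.7 CPM in the Olig2 libraries and at 5.33 to 7.64 CPM in the controls (0.65 ± 0.21, adjusted p = 0.182). The remaining C-type genes had log2 fold changes of 0.66 ± 0.29 for Pcdhgc4 (adjusted p = 0.36) and 0.35 ± 0.28 for Pcdhgc5 (adjusted p = 0.659). The least changed gamma member was Pcdhgb4, at 6.48 and 7.93 CPM in the Olig2 libraries and 5.43 to 7.85 CPM in the controls (0.15 ± 0.19, adjusted p = 0.792), so its groups overlapped.

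These calls rest on few libraries. Without Olig2 replicate 2 no member passed and without Olig2 replicate 1 only Pcdhb17 and Pcdhb22 did, while leaving out 1 control left 2 to 5 calls, with 2 without replicate 2 and 3 without replicate 4. The sample descriptions carry numbers from 210 to 215 or of 232 and 234, called label series 21 and 23 here; what they stand for is not given. Both Olig2 libraries and 3 controls are of series 21, and between these 1 member passed, Pcdhgc3. With a term for the series 1 passed, Pcdhb22, and 0 passed when the fit held only the Olig2 and control libraries.

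The genes around the clusters were also higher in the Olig2 line. The 42 other genes within 1 Mb summed to 1.51 times the control mean, equal to the gamma ratio. Of the 35 tested, 23 rose and the median log2 fold change was 0.61. They include the non-clustered protocadherin Pcdh1, at 56.7 ± 6.55 CPM in the Olig2 line and 33.0 ± 6.38 CPM in the control (log2 fold change 0.78 ± 0.16, adjusted p = 0.0222). Along the chromosome, the 74 tested genes more than 10 Mb before the alpha cluster had a median log2 fold change of -0.04. The 258 from 10 Mb before it to 50 Mb after it had a median of 0.56, and 243 of them were positive.

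**Figure D4:**
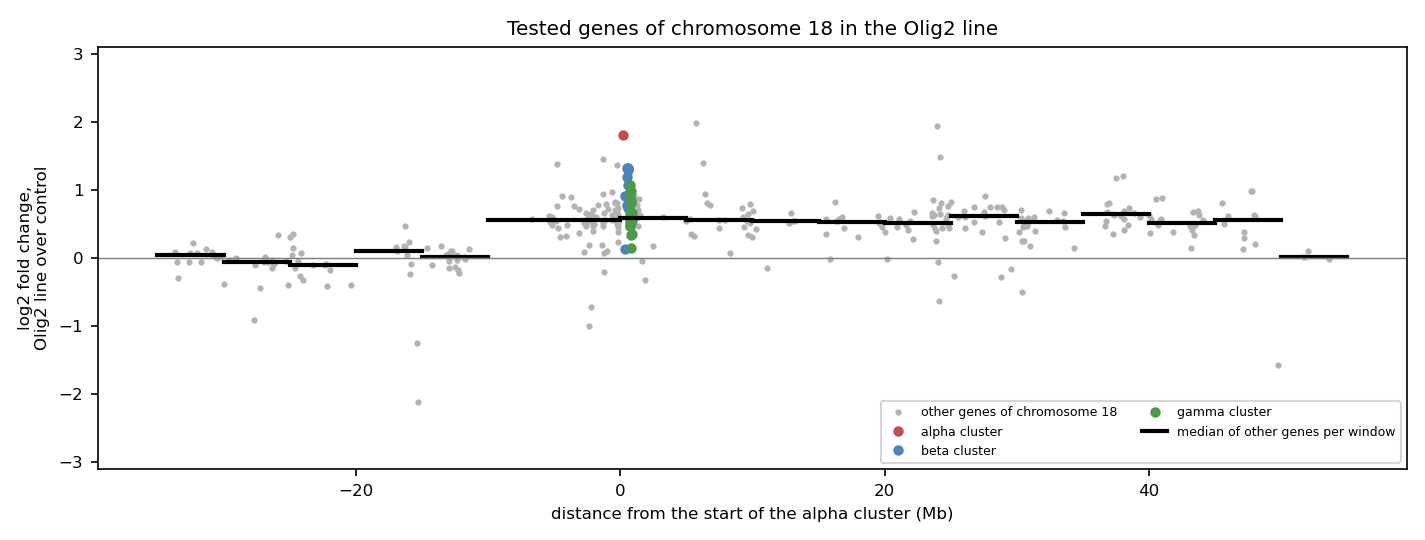
Log2 fold change, Olig2 line over control, of every tested gene of chromosome 18 against its distance from the start of the alpha cluster (Mb); black bars are medians of other genes in windows of 5 Mb and coloured points are the clustered protocadherins. The medians lie between -0.10 and 0.10 to the left of -10 Mb and between 0.51 and 0.64 from there to 50 Mb; the last window, with 3 genes, is at 0.01.

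The clusters were also set against these neighbours. Per 1000 reads of the genes within 1 Mb, the gamma cluster had 77.8 and 96.0 reads in the Olig2 libraries, against 72.9 to 97.1 in the controls, a ratio of means of 1.00. The beta cluster had 7.39 and 14.1 reads in the Olig2 libraries, against 7.06 to 10.4 in the controls, a ratio of 1.35, and only replicate 2 lay above the controls. The alpha cluster had 0.904 and 1.88 reads in the Olig2 libraries, against 0.784 to 0.871 in the controls, a ratio of 1.67, with both libraries above the controls but few counts. On this scale the gamma groups overlapped fully and the beta groups in part; whether beta and alpha differ from gamma was not tested, since a sum over chosen members has no test here.

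**Figure D5:**
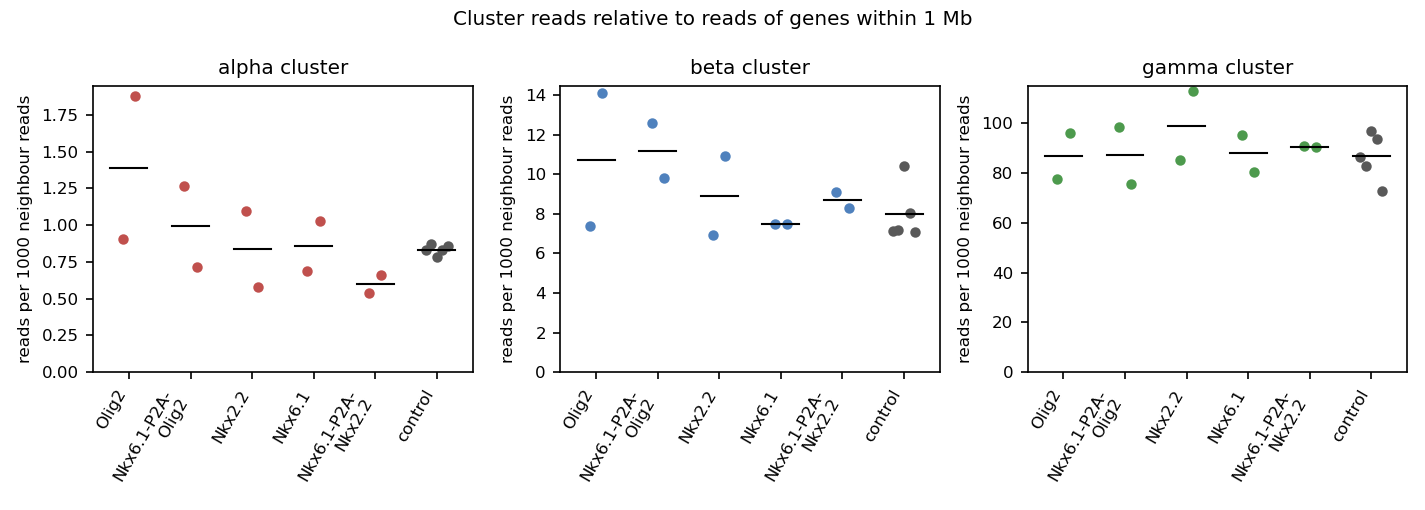
Reads of each cluster per 1000 reads of the other genes within 1 Mb, in every library; points are libraries, lines are group means and the control is at the right. The gamma values of the Olig2 line, 77.8 and 96.0, fall inside the control range, while its beta values spread from 7.39 to 14.1.

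The beta sum and the neuron markers were highest in the same library. In Olig2 replicate 2 the 9 neuron markers summed to 140 CPM, above the 75.5 CPM of replicate 1 and the 71.0 to 96.9 CPM of the controls, and its 5 pluripotency markers summed to 83.1 CPM, against 265 CPM in replicate 1 and 163 to 340 CPM in the controls. The 7 progenitor markers differed too, with 351 CPM in replicate 1, 624 CPM in replicate 2 and 444 to 621 CPM in the controls. They were also higher in replicate 2 of Nkx2.2 (277 and 440 CPM in replicates 1 and 2), Nkx6.1-P2A-Olig2 (512 and 687 CPM) and Nkx6.1-P2A-Nkx2.2 (365 and 458 CPM). In Nkx6.1 they were lower in replicate 2 (387 and 310 CPM). By edgeR 0 of the 9 neuron markers passed in the Olig2 line, beside 198 higher and 62 lower of all 13982 genes tested. Of the 9, 2 had an unadjusted p under 0.05 and DESeq2 called 0. The median log2 fold change of the 9 was 0.39. Dcx (-0.23), Stmn2 (-0.56) and Syt1 (-0.40), named after their values were seen, were negative and the others positive. Nkx2.2 replicate 2, whose label carries the same number as Olig2 replicate 2 (215), had 107 CPM of neuron markers, 18.7 CPM of beta, 195 CPM of gamma and 0.996 CPM of alpha RNA, against 68.5, 12.5, 154 and 1.99 CPM in Nkx2.2 replicate 1, so alpha went the other way. Other pairs shared the order in part or not at all. Nkx6.1-P2A-Olig2 replicate 2 had more neuron marker RNA than replicate 1 (94.4 and 57.8 CPM) but less beta (18.3 and 22.3 CPM) and gamma RNA (142 and 174 CPM). Nkx6.1 replicate 2 had more marker RNA (66.9 and 52.0 CPM), slightly more beta (13.8 and 13.5 CPM) and less gamma RNA (148 and 172 CPM). Nkx6.1-P2A-Nkx2.2 replicate 2 had more marker RNA (86.0 and 67.7 CPM), less beta (15.1 and 16.3 CPM) and slightly more gamma RNA (164 and 162 CPM). Alpha RNA, from few counts, was higher in replicate 2 of Nkx6.1 (1.89 and 1.24 CPM) and Nkx6.1-P2A-Nkx2.2 (1.2 and 0.962 CPM). It was lower in replicate 2 of Nkx6.1-P2A-Olig2 (1.34 and 2.24 CPM). The part of these markers in the protocadherin values was not tested, and in RNA from whole cultures fewer cells of a type and less RNA per cell cannot be told apart.

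When Olig2 was made together with Nkx6.1, the gamma cluster did not stand apart from the control. Its gamma sum was 174 and 142 CPM, against 137 to 167 CPM in the controls, a ratio of 1.02, and the neighbours within 1 Mb had a median log2 fold change of 0.01. Beta RNA was 22.3 and 18.3 CPM in this line, against 12.6 to 17.9 CPM in the controls, a ratio of 1.43, with both libraries above the controls. All 10 tested beta members had a positive log2 fold change, with a median of 0.37, against -0.05 for gamma. The alpha sum was 2.24 and 1.34 CPM, against 1.35 to 1.61 CPM in the controls.

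Pcdhb11 was the single member to pass the test there, 1 of 33 beside 1.02% of all genes tested. It stood at 2.24 and 2.08 CPM in the Nkx6.1-P2A-Olig2 libraries, against 0.626, 0.732, 0.676, 0.957 and 0.5 CPM in the controls, a log2 fold change of 1.62 ± 0.40 (adjusted p = 0.0484). The groups did not overlap, which held for 2 of 33 members, both beta, with the line above the controls, beside 12.4% of all genes tested. In the Olig2 line it stood at 1.19 and 2.28 CPM, also above all controls, with a log2 fold change of 1.32 ± 0.41 (adjusted p = 0.166). The call in the Nkx6.1-P2A-Olig2 line was close to the threshold and was lost when any of the 7 libraries compared was left out; over the alternatives its adjusted p ran between 0.0253 and 0.311.

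Set directly against the Nkx6.1-P2A-Olig2 line, with a term for the label series, no member passed in the Olig2 line (0 of 33 by edgeR, beside 0.579% of all genes tested in either direction; 8 members had an unadjusted p under 0.05 and DESeq2 called 0). The log2 fold change was positive for 21 of 22 gamma members, with a median of 0.60, and for 6 of 10 beta members, with a median of 0.37. It was likewise positive for 34 of the 35 tested neighbours within 1 Mb, with a median of 0.61. Over all genes tested, 6656 of 13982 were positive, with a median of -0.02. Set against the mean of the Nkx2.2 and Nkx6.1 lines, which are of the same label series (the controls enter only the shared estimate of spread), the Olig2 line was higher for Pcdhb17 (log2 fold change 1.49 ± 0.31, adjusted p = 0.0231) and Pcdhb22 (1.33 ± 0.26, adjusted p = 0.0145). That is 2 of the 31 members not tested through the Olig2 libraries alone, beside 1.83% of all genes tested, and the same Olig2 libraries enter as in the comparison with the control. Of the genes around the clusters, 23 of 35 tested within 1 Mb were higher in this comparison, with a median log2 fold change of 0.58. Of all other tested genes of chromosome 18, 155 of 335 were higher. Pcdhac2, which was tested through the Olig2 libraries alone, had a log2 fold change of 2.09 ± 0.43 (adjusted p = 0.0223) and makes the count of members 3 of 33. That count was 0 when the fit held only these 3 lines. Without Olig2 replicate 2 or Nkx6.1 replicate 1 the count was 0, and without Nkx2.2 replicate 1 it was 1.

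No member passed in the lines without Olig2. In the Nkx2.2, Nkx6.1 and Nkx6.1-P2A-Nkx2.2 lines 0 of 33 were called by edgeR. This is near the shares of all genes tested in either direction, 0.722%, 0.737% and 2.85%. In each line 1 member had an unadjusted p under 0.05 and DESeq2 called 0. The log2 fold change was positive for 19, 15 and 9 of the 22 gamma members, with medians of 0.25, 0.09 and -0.06, against -0.005, 0.004 and -0.004 over all genes tested. With 1 library left out the Nkx2.2 gamma median ran from 0.01 to 0.45. Of the 10 tested beta members 8, 4 and 5 were positive. The gamma sum was 1.13, 1.03 and 1.06 times the control mean in these lines and the beta sum 1.10, 0.962 and 1.11 times. The alpha sum was 1.00, 1.05 and 0.724 times the control mean, the last from 31 counts, with both Nkx6.1-P2A-Nkx2.2 libraries below the controls.

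No regulator of the clusters passed the test in the Olig2 line. Of the 20 tested regulators of promoter choice and silencing, among them the insulator protein Ctcf, cohesin subunits, the silencing factor Smchd1 and DNA methyltransferases, 0 passed by edgeR (0 had an unadjusted p under 0.05 and DESeq2 called 0) and the median log2 fold change was -0.03. Over all 13982 genes tested in this comparison 198 were higher and 62 lower, so 0 of 20 is near that share. Ctcf stood at 237 ± 8.69 CPM in the Olig2 line and 249 ± 21.1 CPM in the control, and Smchd1 at 244 ± 16.1 CPM in the Olig2 line and 251 ± 28.6 CPM in the control. A single regulator, Rest, fell in the Nkx6.1-P2A-Olig2 line; it is a repressor of neuronal genes, is named here after its values were seen, and stood at 56.6 ± 5.75 CPM in that line and 74.8 ± 6.94 CPM in the control (log2 fold change -0.40 ± 0.10, adjusted p = 0.0419). The DNA methyltransferase Dnmt3a, also named after its values were seen, rose with Nkx6.1-P2A-Nkx2.2, to 243 ± 2.18 CPM in that line, against 182 ± 21.4 CPM in the control (0.42 ± 0.10, adjusted p = 0.0447). Each is 1 of 20 regulators. Beside Rest, 142 of 13982 genes tested were higher and 255 lower in the Nkx6.1-P2A-Olig2 line. Beside Dnmt3a, 2.85% of all genes tested passed in either direction. Of 16 tested intracellular partners and processing enzymes 0 passed in the Olig2 line by edgeR, also near the share over all genes (1 had an unadjusted p under 0.05 and DESeq2 called 0), with a median of 0.03.

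Of the 7 tested non-clustered protocadherins, adhesion proteins with genes outside the arrays, 1 rose in the Olig2 line, beside 1.42% of all genes tested. It was Pcdh1, which lies within 1 Mb of the clusters, and the median of the 7 was -0.05. Pcdh19, on the X chromosome and named after its values were seen, fell in the Nkx6.1-P2A-Olig2 line: it stood at 7.41 ± 1.49 CPM in that line and 15 ± 1.41 CPM in the control (log2 fold change -1.02 ± 0.16, adjusted p = 0.0041). With Nkx6.1-P2A-Nkx2.2 it also fell, to 7.42 ± 1.09 CPM (-1.01 ± 0.16, adjusted p = 0.00352), and Pcdh8, named for the same reason, fell to 0.971 ± 0.214 CPM in that line, against 2.69 ± 0.297 CPM in the control (-1.48 ± 0.33, adjusted p = 0.0314). Of the 7, 1 thus passed with Nkx6.1-P2A-Olig2, beside 142 higher and 255 lower of all 13982 genes tested. With Nkx6.1-P2A-Nkx2.2, 2 of the 7 passed, beside 153 higher and 246 lower of all genes tested. Among the 6 lists of cell type markers 3 genes passed in the Olig2 line, beside 198 higher and 62 lower of all genes tested. The lists held 7 tested progenitor, 9 neuron, 5 pluripotency, 6 fibroblast, 4 oligodendrocyte lineage and 4 mesoderm and endoderm genes. Pax6, a progenitor factor, fell to 45.7 ± 1.5 CPM in the Olig2 line, against 99.8 ± 18.2 CPM in the control (log2 fold change -1.13 ± 0.20, adjusted p = 0.00706), and passed as lower in each of the other 4 lines too. The mesoderm gene Meox1 fell to 8.99 ± 1.58 CPM in the Olig2 line, against 19.9 ± 5.66 CPM in the control (-1.15 ± 0.25, adjusted p = 0.0332). The myelin gene Mbp, itself on chromosome 18, rose to 49.0 ± 6.45 CPM in the Olig2 line, against 27.8 ± 1.38 CPM in the control (0.81 ± 0.11, adjusted p = 0.00133), and passed as higher in the Nkx6.1-P2A-Olig2 line too.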

How the data were processed

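The members, gene lists and comparisons were chosen with earlier results of these data known. Total RNA was purified on NucleoSpin columns and turned into TruSeq libraries, per the labels' protocols. STAR, DESeq2 and mm10 stand in the submitters' processing notes, with neither versions nor roles; the annotation, the counting tool and its strand setting are not given in the sources used here. The deposited table is named for RPKM but holds raw counts: 0 cells were not whole and totals differed between libraries. Another deposited table holds a ratio for 224 genes, each cell equal within 5e-10 to the count over the mean control count, and holds 0 members. In 27 rows a spreadsheet had turned the symbol into a date; these held 0.228% to 0.253% of the counts and were not tested.

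The 13982 genes that reached 1 CPM (of the library total, before scaling) in 2 or more libraries were fitted with edgeR 4.0.16 (R 4.3.3) by TMM and the quasi-likelihood test, in 1 model of 6 groups and all 15 libraries. The comparison of Olig2 with Nkx6.1-P2A-Olig2 had a term for the label series (21 or 23). P-values were adjusted by Benjamini-Hochberg over all genes tested, with a threshold of 0.05. Cluster sums used every row. Gene and exon positions came from RefSeq and GENCODE M21, both on the mm10 assembly. Named members were those past the threshold in a line, the 4 highest tested in the controls and the most and least changed of each cluster, the C-type members, and those at the edge of the filter. Alternatives were DESeq2 1.42.0, limma 3.58.1 on log2(CPM + 1), scaling by median of ratios, a filter at 5 CPM or none, the replicate or label number as a block, the label series as a term, only the compared groups, only controls of the same label series, and each library left out. TMM without chromosomes 18 and Y and shares per kb of variable exon were added after seeing the data. The fit was also run on simulated counts in which randomly chosen genes changed. That setting does not hold a shift shared by neighbouring genes, and its outcome is not reported here. Counting limits the precision of the low members.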

Additional observations from a re-analysis of the deposited data

Results flagged for a closer look

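Among 23 sets of 5 control values examined (the 3 cluster sums and the named members), 1 sample lay far from the others, where chance alone gives about 1 in 20. The level of Pcdha12 in control replicate 5 was 0.5 CPM, against 0.052 to 0.169 CPM in the other 4 controls. The gap to the nearest control was 0.739 of the whole range, above the critical value of 0.71 for 5 samples. Pcdha12 was not tested, and these are very few reads per library.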

How the results depend on the processing

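For the Olig2 line against the control, 6 members passed; 0 did with only the compared groups, 1 each with the label series term or with controls of the same label series, and 0 to 5 with 1 library left out. Against the Nkx2.2 and Nkx6.1 lines, 3 passed; 1 did with a filter at 5 CPM, 0 with only the compared groups, and 0 to 3 with 1 library left out. Against the Nkx6.1-P2A-Olig2 line, 0 passed; 1 did with the label number block (Pcdhb20, lower in the Olig2 line and named after its values were seen) and 1 without the label series term (Pcdhga4). Between the Nkx6.1-P2A-Olig2 line and the control, 1 passed; 2 did with the label number block, and 0 with median-of-ratios scaling, a filter at 5 CPM, the label series term, controls of the same series, TMM without chromosomes 18 and Y, or any library left out. DESeq2 called 9 members in the Olig2 line, all higher. Members that changed sign in the Olig2 line were Pcdhb18 (-0.19 with the label number block, -0.52 without Olig2 replicate 2, and -0.52 to 1.37 with any library left out), Pcdhb2 (-0.11 with the replicate block, -0.07 with the series term, -0.07 with controls of the same series, -0.27 without Olig2 replicate 1, and -0.27 to 0.46 with any library left out) and Pcdhgb4 (-0.18 with the label number block, -0.00 without Olig2 replicate 2, and -0.00 to 0.28 with any library left out). The median of alpha members was 0.55 without the filter, which brings in 13 members with a count in place of 1. The beta share of control reads was 9.34%, 4.35% and 5.73% per kb of all exons, of exon bases shared with no annotated gene and of variable exons, and the gamma share 89.8%, 94.8% and 93.3%.

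Replicate numbers were not shown to pair libraries: the deviations from the group mean of 30 same-numbered pairs correlated between -0.337 and 0.675. In a group of 2 libraries the deviations mirror each other, so values between lines are repeated among the 30 pairs. Pairs with the same label number correlated between -0.485 (Olig2 replicate 1 and control replicate 3) and 0.675 (Nkx2.2 replicate 2 and Olig2 replicate 2). With the replicate number as a block, 2 members passed in the Olig2 line against the control, 5 against the Nkx2.2 and Nkx6.1 lines, 1 against the Nkx6.1-P2A-Olig2 line, and 0 between the Nkx6.1-P2A-Olig2 line and the control. Controls of the same series were not run for the comparisons without a control. The cause of these changes was not tested. At this depth most alpha and beta members have under 1 CPM, and the members under the filter were not tested singly.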
